A study of Rattus norvegicus with 7 samples.

Results

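The mir-99, mir-100 and mir-125 families were described in the developing rat retina. Their members were the miRNA features whose gene symbol is Mir99a, Mir99b, Mir100, Mir125a or Mir125b with any copy number. This gave 5 loci, Mir99a, Mir99b, Mir100, Mir125a and Mir125b1, of 571 miRNA features and 5491 features in all. No feature with the symbol Mir125b2 was among the values analysed here.

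Small RNA was sequenced from the whole retina of untreated Wistar WU rats at 7 postnatal ages, from P1 and P3 through P5, P7 and P10 to P15 and P21, with the day of birth as day 0. Each age was 1 sample of the pooled RNA of 3 retinas, and the study states that it was sequenced 2 times. The sample of an age is called its library here, though the number of library preparations behind it is not stated. The deposited values are FPKM, the number of mapped fragments scaled for feature length and library size, with 1 value per age. The animals and the library cannot be told apart from the age, and no test between ages was possible.

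miRNAs are short RNAs that guide silencing proteins to messenger RNAs, mainly by pairing of the seed near their 5′ end. The miR-125 family is the vertebrate relative of lin-4, the worm RNA that was found through its control of developmental timing, as was let-7. miR-125 and let-7 are known to act in the timing of retinal progenitor cells, and miR-99 and miR-100 are known to target components of mTOR signalling. In vertebrate genomes these genes lie in clusters of a mir-99 or mir-100 gene, a let-7 gene and a mir-125 gene.

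The mature sequences show which members share a seed, which is the part in capitals, bases 2 to 8. They are RefSeq entries of the GRCr8 assembly, written 5′ to 3′. For Mir99a the entry shown is the arm from the 3′ side of its hairpin, and the miR-125b entry is listed under Mir125b2. The other arm, rno-miR-99a-5p, was not among these entries, so its seed is not shown and was not compared with those below.
rno-miR-100-5p: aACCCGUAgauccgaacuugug
rno-miR-99b-5p: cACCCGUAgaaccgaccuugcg
rno-miR-99a-3p: cAAGCUCGuuucuaugggucug
rno-miR-125a-5p: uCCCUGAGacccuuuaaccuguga
rno-miR-125b-5p: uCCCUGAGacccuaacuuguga

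miR-100-5p and miR-99b-5p had the same seed. Counted from the 5′ end of miR-100-5p, the 22 bases differed from those of miR-99b-5p by A1C, U11A, A16C and U21C. The seed of miR-99a-3p was shared with rno-miR-99b-3p only. miR-125a-5p and miR-125b-5p had their first 13 bases in common, and their seed was also that of rno-miR-351-5p.

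In Rnor_6.0 coordinates, the build of the deposited values, the members lay on 3 chromosomes, all on the plus strand. Mir99a was on chromosome 11 at 16052153 to 16052233. Mir100 and Mir125b1 were on chromosome 8 at 45746948 to 45747027 and at 45798260 to 45798346. Mir99b and Mir125a were on chromosome 1 at 59704216 to 59704285 and at 59704827 to 59704911, with 541 bases between them. None of the deposited features that are not miRNAs overlapped a member (0 features).

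In the deposited values, all 5 members had their lowest level at P1 and their highest at P21, and all were more than 2-fold higher at P21 than at P1. Under some other scalings the highest age moved to P7 for Mir99b and Mir125a, and the lowest age of Mir99b moved to P10 or P15. Mir99a and Mir100, the latter from 3 alignments at P1, rose most, by 5.94 and 5.57 on the log2 scale, followed by Mir125b1 with 3.53, Mir125a with 2.18 and Mir99b with 1.72. Of all miRNA features, 31.5% were at least 2-fold higher at P21 and 32.9% at least 2-fold lower. The median change was 3.53 for the members and -0.049 for all miRNA features. In the deposited values, 20.8% of the miRNA features were lowest at P1, 29.8% were highest at P21 and 13.7% were both. In whole retina, a change in the number of cells of a type and a change in RNA per cell cannot be told apart.

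**Figure D1:**
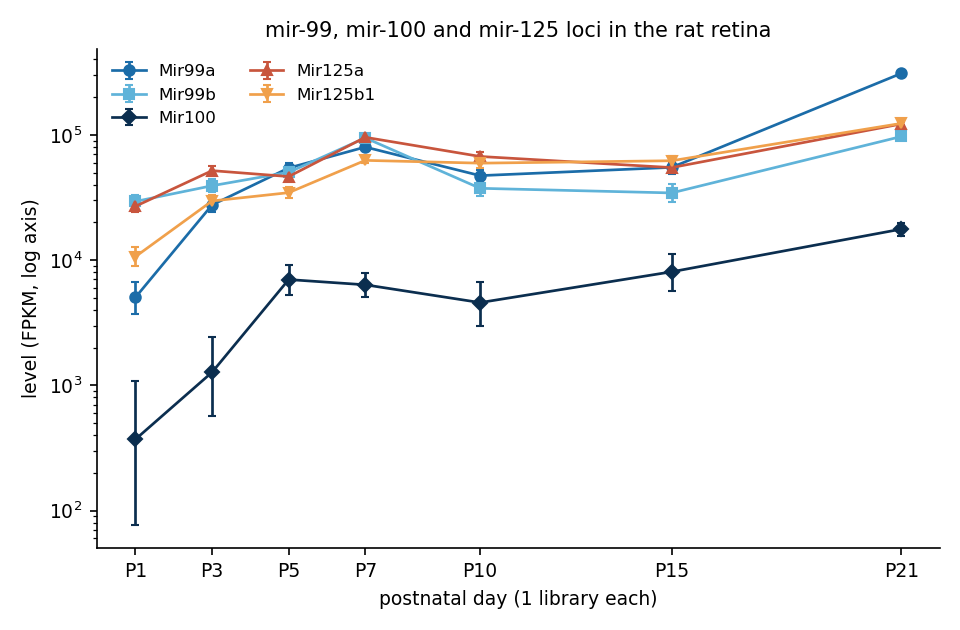
Level of each member in FPKM (log axis) against postnatal day, with 1 library per age and 95% counting intervals as bars. Each locus is lowest at P1 and highest at P21, and Mir99a stands above the others at P21 with 309489 FPKM.

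The counting intervals rest on alignments estimated from the FPKM values. The low FPKM values of a library were whole-number sums of a few steps, each the worth of 1 alignment at a given feature length, with 1 step at P1, 2 steps at P3 to P15 and 4 steps at P21. Estimated in this way, depth ranged from 300406 alignments at P1 up to 1366205 at P21. Beyond P1 this takes for granted that each step of a library carried an equal signal. Without that assumption the P21 total could lie between 449759 and 1794794. Where steps differed in size, the intervals used a smaller, effective number of alignments, taken with the mean step of the library. Effective depth was lowest at P15, with 219555 against 452303 estimated alignments. All intervals are 95% counting intervals and leave out variation between animals, and PCR copies are not independent molecules. The share of miRNAs was lowest at P3, with 39.0% of alignments, and elsewhere ran from 57.8% to 74.0%.

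Mir99a, of the mir-99/100 family, had 5042 FPKM at P1 and 27558 at P3, 54344 at P5 and 79862 at P7, then 47208.5 at P10 and 54956 at P15, and 309489 at P21. Its level at P21 was 61.4-fold that at P1 (interval 45.9 to 83.9) and rested on about 7796 alignments, against 46 at P1. The first 4 ages formed an ascending series, P10 and P15 lay below P7, and the P21 value was far above all others. P10 and P5 differed by 0.20 on the log2 scale (interval -0.0075 to 0.42) and P5 and P15 by 0.016 (-0.20 to 0.23), so these neighbours in the order of levels were not separated beyond counting error. From P15 to P21 alone the level rose by 2.49.

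Mir100, whose mature sequence shares its seed with miR-99b-5p, was the least abundant member. It had 371 FPKM at P1 and 1272 at P3, 6990 at P5 and 6348 at P7, then 4578 at P10 and 8061 at P15, and 17668 at P21. The P1 value rested on 3 alignments, the number taken as the floor, and the P21 value on about 394. The ratio of P21 to P1 was 47.5, with an interval of 16.1 to 232. It rose by 2.46 from P3 to P5. P1 and P3 were not separated beyond counting error (1.77, interval -0.24 to 4.30), nor were neighbours in the order P10, P7, P5 and P15. The P21 value was above all others beyond counting error.

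Mir99b started higher and changed least. It had 29385 FPKM at P1 and 39217 at P3, 50212.5 at P5 and 94470 at P7, then 37393.5 at P10 and 34354 at P15, and 96937 at P21. Its values at P7 and P21 formed a high pair, 0.037 apart on the log2 scale (interval -0.068 to 0.14), while P1, P15, P10 and P3 followed each other at the low end with neighbours not separated beyond counting error. In the deposited values it was the only member at least 2-fold lower at P10 than at P7, with a fall of 1.34, as were 21.5% of all miRNA features. The 3.30-fold rise from P1 to P21 (interval 2.88 to 3.79) depended on the scaling. Per 1000000 estimated miRNA alignments, Mir99b had 1374 at P1, 3990 at P7 and 2267 at P21, which is highest at P7 and less than 2-fold higher at P21 than at P1. On this scale its lowest age was P15, and after scaling to the miRNA total it was P10.

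Mir125a had 26880 FPKM at P1 and 51748 at P3, 46426 at P5 and 95532 at P7, then 67135 at P10 and 54736 at P15, and 122091 at P21. Its rise from P1 to P21 was 4.54-fold (interval 4.06 to 5.10). P7 was the second highest age, and P5, P3 and P15 followed each other without a difference beyond counting error. Per estimated miRNA alignment and after scaling to the miRNA total, P7 and not P21 was the highest age of Mir125a.

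Mir125b1 had 10656.5 FPKM at P1 and 29638 at P3, 34521 at P5 and 62497 at P7, then 59377 at P10 and 62075 at P15, and 123392 at P21. The rise from P1 to P21 was 11.6-fold (interval 9.74 to 13.9). P1 was lowest, followed by P3 and P5, which were 0.22 apart (interval 0.0049 to 0.44), then by P7, P10 and P15, and P21 was highest. The values of P10, P15 and P7 were in ascending order and each was within counting error of the next.

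The steps between neighbouring ages were first taken in the deposited values. From P1 to P3, 3 of 5 members (Mir99a, Mir100 and Mir125b1) were at least 2-fold higher, beside 15.9% of all miRNA features. None fell 2-fold, beside 19.8%. For Mir100, on 3 alignments at P1, the interval of this step included 0 (-0.24 to 4.30). From P3 to P5 Mir100 alone was at least 2-fold higher (14.2% of all), on about 9.8 alignments at P3. From P5 to P7 it was Mir125a alone, by 1.04 (13.7% of all). None fell 2-fold in either step, beside 12.1% and 15.6% of all. From P7 to P10 no member was 2-fold higher, beside 25.9% of all, and Mir99b alone was 2-fold lower, beside 21.5% of all. All 5 values were lower, by 0.074 to 1.34. For Mir100 (-1.16 to 0.17) and Mir125b1 (-0.22 to 0.072) the interval included 0. Between P10 and P15 no member changed 2-fold in either direction, while 12.1% of all miRNA features were higher and 27.1% lower. From P15 to P21, 4 of 5 members rose at least 2-fold, beside 32.4% of all, and Mir125b1 was just under this limit with 0.99.

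Which steps were large depended on the scaling, in alternatives added after the data were seen. From P5 to P7, 1 of 5 members was at least 2-fold higher after scaling to the miRNA total, beside 14.54% of all miRNA features. By median of ratios 3 members were, beside 19.79% of all, and by TMM 4 were, beside 22.59%. Per estimated miRNA alignment 3 members were, Mir99b, Mir125a and Mir125b1, beside 18.6% of all. The share of all miRNA features that rose thus also changed with the scaling. From P7 to P10 the members at least 2-fold lower were Mir99a and Mir99b under the miRNA-total, median-of-ratios and TMM scalings. Under these, 30.6%, 26.8% and 30.8% of all miRNA features were at least 2-fold lower. Per alignment 4 members were, all but Mir125b1, beside 37.8% of all. From P15 to P21, Mir99a and Mir99b alone were at least 2-fold higher under each of the 4 other scalings. So were 20.8% (miRNA total), 25.2% (median of ratios), 23.1% (TMM) and 24.5% (per alignment) of all miRNA features. Mir100 and Mir125a, with 1.13 and 1.16 in the deposited values, were under the limit in these scalings.

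P7 and P21 were the 2 highest ages in 4 of 5 members, all but Mir100, whose second highest age was P15. The same was true of 5.08% of all miRNA features. The count was 4 or 5 of 5 members under the other scalings, beside 4.90% to 8.76% of all. The members together took 0.430% of the estimated miRNA alignments at P1 and 0.786% at P3, 0.809% at P5 and 1.80% at P7, then 0.769% at P10 and 0.790% at P15, and 1.92% at P21. As a share of miRNA alignments, P7 and P21 were thus more than 2-fold above each of the other ages.

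Ranked by the change from P1 to P21 among the 571 miRNA features, Mir99a was at place 20, Mir100 at 22, Mir125b1 at 49, Mir125a at 98 and Mir99b at 127. Many features above them rested on few alignments. Among the 345 miRNA features with a mean of at least 20 alignments, a limit added once the values were known, the places were 4, 6, 28, 66 and 82. The limit is on the mean over ages, and Mir100 itself rested on 3 alignments at P1, so its place is uncertain.

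**Figure D2:**
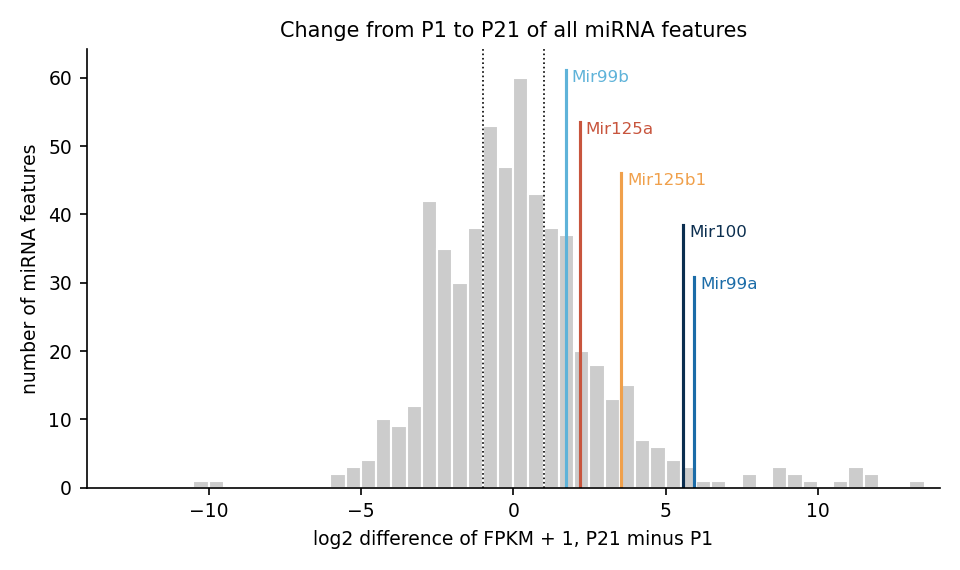
Number of miRNA features by their log2 difference of FPKM + 1, P21 minus P1, in grey, with the position of each member as a coloured line and the 2-fold limits as dotted lines. The members lie between 1.72 and 5.94, right of the upper limit.

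Summed over loci, the mir-99/100 family had 34798 FPKM at P1 and 424094 at P21, a 12.2-fold rise (interval 10.8 to 13.7). The mir-125 loci had 37536 FPKM at P1 and 245483 at P21, a 6.54-fold rise (5.95 to 7.20). Per estimated miRNA alignment these rises were 6.42-fold and 3.27-fold, and the direction of both sums was the same under all scalings tried.

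The makeup of the mir-99/100 family changed over the ages. Ratios of 2 loci in the same library do not depend on how libraries were scaled. Mir99a had 0.172 times the FPKM of Mir99b at P1 and 0.703 times at P3, 1.08 at P5 and 0.845 at P7, then 1.26 at P10 and 1.60 at P15, and 3.19 at P21. The locus order in FPKM thus turned, with Mir99b above Mir99a at P1, P3 and P7 and Mir99a above from P10 on. At P5 the interval of the ratio included equality (0.945 to 1.24). In estimated alignments Mir99a was above at P5 (1.18, interval 1.03 to 1.36), and at P7 the interval included equality (0.925, interval 0.855 to 1.00). The order at P5 and P7 thus depended on the scale. The log2 ratio changed by 4.22 from P1 to P21 (interval 3.76 to 4.68). Mir99a to Mir100 ranged from 6.82 at P15 to 21.6 at P3, and its change from P1 to P21 was 0.37 on the log2 scale with an interval of -1.32 to 2.06, so the few Mir100 alignments at P1 leave its size and direction undetermined.

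In the mir-125 family the shift was smaller. Mir125a had 2.52 times the FPKM of Mir125b1 at P1 and 1.75 at P3, 1.34 at P5 and 1.53 at P7, then 1.13 at P10 and 0.882 at P15, and 0.989 at P21. Mir125a was above Mir125b1 up to P10, and at P15 and P21 the intervals included equality. The log2 ratio fell by 1.35 from P1 to P21 (interval -1.65 to -1.05).

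The sum of mir-125 relative to that of mir-99/100 had no steady course. It was 1.08 at P1 and 1.20 at P3, 0.726 at P5 and 0.875 at P7, then 1.42 at P10 and 1.20 at P15, and 0.579 at P21. In estimated alignments, which are not divided by length, it was 1.05 at P5 and 1.27 at P7, so which family was higher at those ages depended on the scale. At P21 mir-125 was lower on both, with 0.818 in alignments. The log2 ratio of FPKM changed by -0.90 from P1 to P21 (interval -1.11 to -0.68), but between P1 and P15 it changed by 0.15 (-0.11 to 0.42), the opposite sign. The low value at P21 went with the high Mir99a level of that library.

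**Figure D3:**
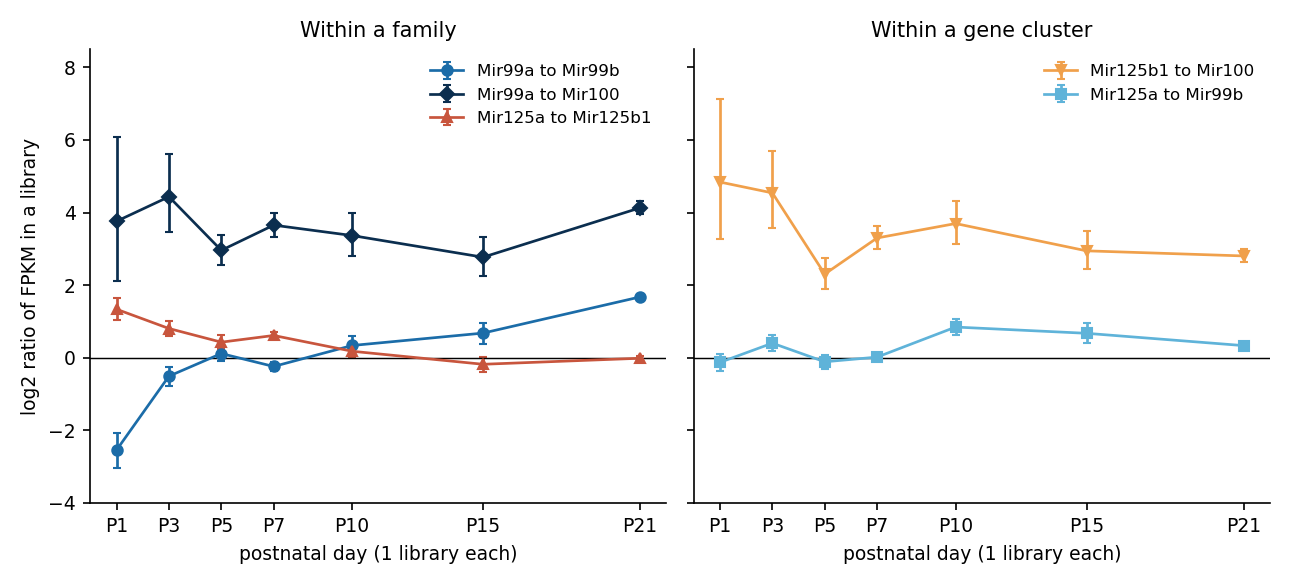
Log2 ratio of the FPKM of pairs of members within each library against postnatal day, with 95% counting intervals as bars, for pairs of one family (left) and pairs of one gene cluster (right). Mir99a to Mir99b climbs from -2.54 to 1.67, and Mir125a to Mir125b1 declines from 1.33 to -0.015.

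Members that neighbour each other on a chromosome were compared in the same way. On chromosome 1, Mir125a to Mir99b ranged from 0.915 at P1 to 1.80 at P10, with intervals that included equality at P1, P5 and P7. In estimated alignments Mir125a was above Mir99b at these ages too, with ratios of 1.38, 1.39 and 1.53 whose intervals did not include equality. The log2 ratio of FPKM rose by 0.46 from P1 to P21 (interval 0.21 to 0.71). From P3 to P21 it changed by -0.067 (-0.29 to 0.16). On chromosome 8, Mir125b1 had 28.6 times the FPKM of Mir100 at P1, on 3 Mir100 alignments and 23.3 times at P3, 4.94 at P5 and 9.84 at P7, then 13.0 at P10 and 7.70 at P15, and 6.98 at P21. The log2 ratio fell by 2.04 from P1 to P21, with an interval of -3.70 to -0.38.

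Each cluster also held other miRNA features within 100 kb of a member. On chromosome 11, Mirlet7c-1, a let-7 locus 634 bases from Mir99a, had 15493 FPKM at P1, 17138 at P7, 34136 at P10 and 14869 at P21. Its change from P1 to P21 was -0.059 (interval -0.28 to 0.16), beside 5.94 for Mir99a. Relative to Mirlet7c-1, Mir99a had 0.325 times the FPKM at P1 and 20.8 times at P21, and 0.173 and 11.1 times the alignments. Mirlet7c-1 had 0.903 to 1.06 times the alignments of Mirlet7c-2, a locus of the same let-7c, at all ages, so its level cannot be assigned to the locus beside Mir99a. On chromosome 8, Mir3596a lay between Mir100 and Mir125b1 on the minus strand, and on chromosome 1 Mir3596c lay between Mir99b and Mir125a, also on the minus strand. The reverse complement of miR-3596a shared its first 22 bases with let-7a, and that of miR-3596c shared 21 with let-7e. They changed by -0.86 and -1.26 from P1 to P21. Mir3596a had 0.917 to 1.05 times the alignments of Mirlet7a1 at all ages, and reads of let-7a from other loci cannot be told apart from those of this feature without strand. The same limit holds for Mir3596c and let-7e.

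**Figure D4:**
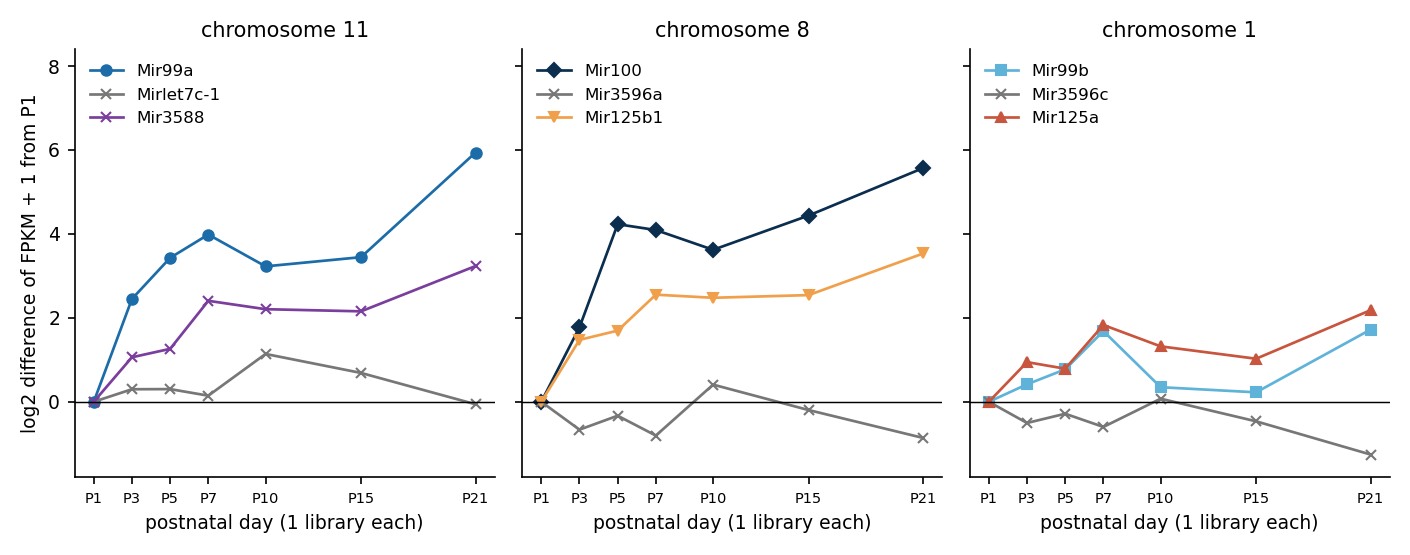
Log2 difference of FPKM + 1 from P1 against postnatal day for the members (colours) and the other miRNA features of each cluster within 100 kb, on chromosomes 11, 8 and 1. Mir99a, Mir100, Mir125b1, Mir99b, Mir125a and Mir3588 end above 0 at P21, and Mirlet7c-1, Mir3596a and Mir3596c end at -0.059, -0.86 and -1.26.

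Mir3588, the last of these features, touches the measurement of miR-125b. It lies on the minus strand of chromosome 11 at 16097337 to 16097442. Its mature sequence is shown because it is the exact reverse complement of miR-125b-5p, and RefSeq gives both the same position on opposite strands.
rno-miR-3588: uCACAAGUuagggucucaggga

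Mir3588 had 3453 FPKM at P1 and 7203 at P3, 8278 at P5 and 18302 at P7, then 15938 at P10 and 15382 at P15, and 32509 at P21. In estimated alignments, Mir125b1 had 0.827 times as many as Mir3588 at P1 and 1.10 at P3, 1.12 at P5 and 0.915 at P7, then 0.999 at P10 and 1.08 at P15, and 1.02 at P21. The interval included equality at all ages but P7 (0.849 to 0.987). The FPKM of Mir125b1 was 3.09 to 4.17 times that of Mir3588, and 3.73 times at P10, where the alignments were nearly equal. The feature length of Mir3588 was 170 against 85, so FPKM was not simply alignments divided by this length. miR-125b-5p is made from more than 1 locus, and the strand setting of the mapping is not given in the sources used here, so the level at Mir125b1 cannot be assigned to that locus alone.

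**Figure D5:**
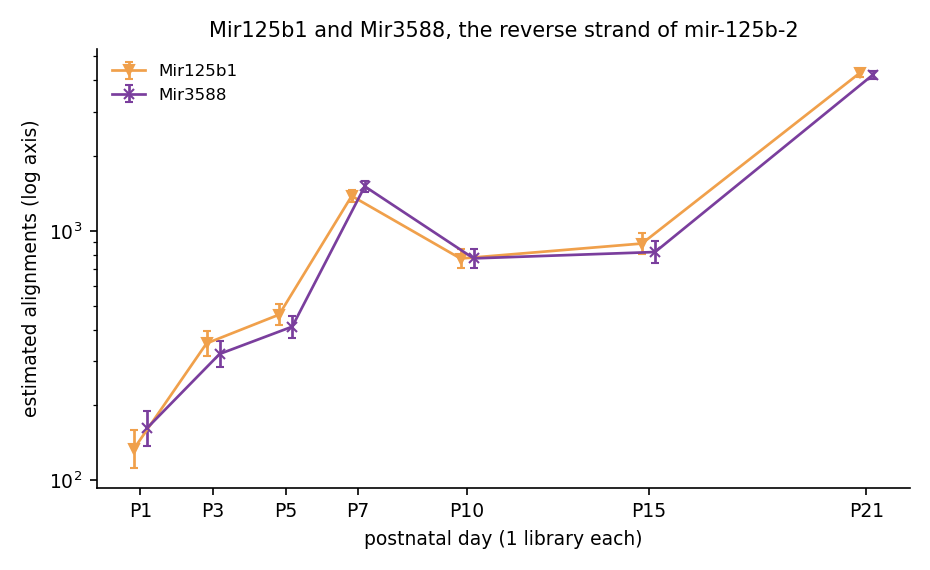
Estimated alignments (log axis) of Mir125b1 and of Mir3588 against postnatal day, with 95% counting intervals as bars and the points of an age set slightly apart. The curves run together from 134 and 162 alignments at P1 to about 4284 and 4211 at P21.

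miR-351-5p, which has the mir-125 seed, was listed at a pair of features that both rested on few alignments. Mir351 had 1406 FPKM at P1 on 9 alignments and 478 at P21 on about 8.4, and the interval of its change included 0 (-3.31 to 0.089). rno-mir-351-1 had 4214 FPKM at P1 on 3 alignments, 8924 at P7 on about 11.1 and 2125 at P21 on about 4.18. Its interval from P1 to P21 also included 0 (-3.87 to 1.91).

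let-7 and mir-98 loci, which act with mir-125 in developmental timing, were followed as the related list. As deposited, 1 of 10 loci was at least 2-fold higher at P21 than at P1 (Mirlet7g, by 1.18), beside 31.5% of all miRNA features. A further 1 was at least 2-fold lower (Mir98, by -1.18), beside 32.9%. Some of these loci share a mature sequence, as Mirlet7c-1 and Mirlet7c-2 or Mirlet7f1 and Mirlet7f-2 do, and are not independent. Their median change was -0.019, near the -0.049 of all miRNA features, and 3.53 for the members. From P7 to P10, 5 of the 10 let-7 and mir-98 loci rose at least 2-fold in the deposited values, beside 25.9% of all miRNA features. All deposited member values were lower over this step, those of Mir100 and Mir125b1 within counting error. The let-7 count depended on the scaling. As a share of the estimated miRNA alignments, Mir98 alone rose at least 2-fold, from 0.0319% at P7 to 0.0700% at P10, beside 10.9% of all miRNA features. The other loci rose less, as Mirlet7f1 from 0.545% to 0.897%, except Mirlet7d, which fell from 0.422% to 0.388%.

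The miRNA features whose levels were most like the summed members over the 7 ages were, by Pearson r of log2(FPKM + 1), Mir3555 with 0.986, Mir1249 with 0.986, Mir138-1 with 0.984, Mir138-2 with 0.972 and Mir323 with 0.964, among 563 compared. Values of an age share the library and its scaling. Mir1249 rested on 6 alignments at P1. After scaling to the miRNA total, 4 of these 5 were again among the 5 most alike.

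Markers of cell types moved over the same ages, and their part in the members' levels was not tested. As shares of the estimated miRNA alignments, the 3 Mir124 loci, which mark neurons, went from 8.20% at P1 to 47.6% at P21. Mir183 and Mir96, which mark photoreceptors, were lowest at P1 with 1.20% and highest at P10 with 6.04%. Mir204 and Mir211, found in Müller glia and pigment epithelium, ranged from 2.31% at P1 to 5.85% at P15. Markers of blood (Mir144 and Mir451a) were highest at P1 with 0.0779%, as was the endothelial Mir126a with 1.05%. Markers of muscle (Mir206, Mir133b and Mir1b) were highest at P3 with 0.162% and at P5 with 0.0987%. At the other ages they ran from 0.00507% to 0.0163%. None of these markers was at 0 in any library. Mir182 and Mir486 belonged to the marker lists and were not used here.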

How the data were processed

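Total RNA of pooled retinas was made into small RNA libraries for the Ion Torrent PGM. The authors trimmed the reads, mapped them to Ensembl noncoding RNAs (Rnor_6.0) and deposited FPKM values from Cuffdiff (2.2.1.3 in the submitters' processing notes) for 21 pairs of ages. The value of an age was the same in each pair and was used once. The authors' fold changes, test statistics, p-values and q-values were not used. The design fixed descriptions without a test.

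Changes are differences of log2(FPKM + 1), and a change was called at 2-fold. Alignments were estimated from steps between low FPKM values (whole multiples below 200, relative tolerance 2e-05). The step was found for 511 of 724 feature lengths and interpolated for the rest. At lengths with a found step, all values below 16 of the smallest steps came out as whole-number sums (100% in each library). Steps were added until nearly all such values were explained, so this share is not a check of the procedure. The procedure was tested on simulated data. Ratios have exact binomial intervals, and changes of ratios have normal approximations. Depth was 300406 to 1366205 estimated alignments. Effective depth, on which the intervals rest, ran from 219555 at P15 to 992425 at P21, and counting error was therefore smallest at P21.

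Members and lists were chosen with earlier results of these data known. The genes named were the members, the miRNA features within 100 kb, the let-7 and mir-98 loci, and the 5 miRNA features with a mean of at least 100 FPKM that were most alike. The miR-351 features were added after their seed was seen. All 5 members had an entry in the RefSeq sequence table (GRCr8), for Mir99a that of the 3′ arm only. Other scalings (miRNA total, median of ratios, TMM trimming 30% and 5%, estimated alignments), pseudocounts, ages and loci were tried. Calculations used Python 3.11.15, numpy 2.4.6, pandas 2.3.3, scipy 1.17.1 and matplotlib 3.10.9.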

Additional observations from a re-analysis of the deposited data

How the results depend on the processing

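No paired analysis was possible because there was 1 library value per age. The log2 rise of the mir-99/100 sum from P1 to P21 (3.61 as deposited) was 2.98 after scaling to the miRNA total, 2.68 per estimated miRNA alignment, 1.64 against the mean of all ages, 2.64 from P3, 1.48 up to P15, 1.95 without Mir99a and 5.92 without Mir99b. The rise of the mir-125 sum (2.71) was 2.08, 1.71, 1.49, 1.59 and 1.64 under the first 5 of these, 3.53 without Mir125a and 2.18 without Mir125b1. From P3, the change of Mir125a to Mir125b1 was -0.82 (-1.35 from P1) and that of Mir99b to Mir99a plus Mir100 was -2.20 (-4.20 from P1), and the latter was -3.32 up to P15. mir-125 to mir-99/100 reversed, from -0.90 at P21 to 0.15 with P15 in its place, and the cause was not tested. Relative to P21, the miRNA-total scaling moved every miRNA by 0.63 at P1 and by 0.24 to 0.87 at P3 to P15, and TMM moved them by -0.14 at P1 and 0.35 at P15.

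The number of members past 2-fold was 5, and 4 per estimated miRNA alignment, where 18.4% of all miRNA features were higher. Under the 4 other scalings, 32 of 40 ages of a lowest or highest level were as in the deposited values, and the 8 that moved were of Mir99b and Mir125a. The highest age of Mir99b was P7 under the miRNA total, median-of-ratios, TMM and alignment scalings. At P1, 3 Mir100 alignments limit every comparison of that locus.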
